A study of Mus musculus with 6 samples.

Results

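The genes described here are the 9 genes of the mitotic cyclins, of the kinase Cdk1 and of the enzymes that switch Cdk1 on and off, among 55450 genes in the count files. They were chosen by name (Ccna2, Ccnb1, Ccnb2, Ccnf, Cdk1, Cdc25b, Cdc25c, Wee1 and Pkmyt1) and matched to the files through the versioned Ensembl identifiers of GENCODE release M21, in which each name had 1 entry. RNA-Seq was done in bulk on freshly isolated mouse hepatocytes, with 3 libraries for undamaged liver (0 h) and 3 for the liver 48 h after surgical removal of most of its mass, called partial hepatectomy (PHx). All 6 preparations came from male C57BL/6 mice (C57BL/6J in the study's methods) on normal diet, 10 to 12 weeks old by the labels, and no transgene or drug is named for either group. The hepatocytes were isolated by collagenase perfusion from a separate mouse for each library. The 0 h mice are not described as sham-operated, so effects of the surgery itself and of the loss of liver mass cannot be told apart.

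Cdk1 is the kinase that drives cells into mitosis. It is active only when bound to a cyclin, first cyclin A2 and then the B cyclins, and it is held inactive by phosphates that Wee1, in the nucleus, and Pkmyt1 (Myt1), at the Golgi and endoplasmic reticulum, place in its ATP-binding site. The Cdc25 phosphatases remove these phosphates at the onset of mitosis, and the destruction of the cyclins ends it. Cyclin F, encoded by Ccnf, differs from the others in that it binds no CDK and is the substrate-binding part of a ubiquitin ligase. Adult hepatocytes are mostly quiescent and re-enter the cell cycle after PHx.

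Transcription of many late cell cycle genes is governed by a short element called the CHR (cell cycle genes homology region), which the DREAM and MuvB complexes bind, together with CCAAT boxes bound by NF-Y. Promoter windows (250 bases before the annotated start and 50 bases from it on, RefSeq, GRCm38.p6) were found for 5 of the 9 genes and are shown because their letters let a reader see these elements in genes that rose together. Ccna2, Cdc25c, Wee1 and Pkmyt1 were not matched to a window. Each line is written 5′ to 3′ on the strand of the gene. Capitals mark CCAAT, its reverse complement ATTGG, the CHR letters TTTGAA, and the CHR variants TTTAAA and TTCGAA, which were searched on both strands.
Ccnb1: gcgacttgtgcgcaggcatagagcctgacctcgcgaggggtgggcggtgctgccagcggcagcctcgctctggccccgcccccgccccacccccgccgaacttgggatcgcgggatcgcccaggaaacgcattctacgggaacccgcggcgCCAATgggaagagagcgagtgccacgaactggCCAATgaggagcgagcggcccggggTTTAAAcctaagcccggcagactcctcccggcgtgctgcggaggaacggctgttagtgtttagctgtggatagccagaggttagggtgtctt
Ccnb2: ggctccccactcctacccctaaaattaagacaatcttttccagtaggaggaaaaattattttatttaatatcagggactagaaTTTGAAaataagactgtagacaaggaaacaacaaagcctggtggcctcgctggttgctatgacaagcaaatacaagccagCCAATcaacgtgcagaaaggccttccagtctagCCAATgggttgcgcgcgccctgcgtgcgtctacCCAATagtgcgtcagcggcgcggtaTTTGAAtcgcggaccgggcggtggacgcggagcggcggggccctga
Ccnf: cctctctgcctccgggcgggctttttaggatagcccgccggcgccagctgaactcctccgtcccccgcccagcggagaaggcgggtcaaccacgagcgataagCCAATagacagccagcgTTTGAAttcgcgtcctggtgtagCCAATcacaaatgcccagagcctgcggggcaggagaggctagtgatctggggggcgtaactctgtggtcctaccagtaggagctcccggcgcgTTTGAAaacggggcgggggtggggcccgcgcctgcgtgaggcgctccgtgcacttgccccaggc
Cdk1: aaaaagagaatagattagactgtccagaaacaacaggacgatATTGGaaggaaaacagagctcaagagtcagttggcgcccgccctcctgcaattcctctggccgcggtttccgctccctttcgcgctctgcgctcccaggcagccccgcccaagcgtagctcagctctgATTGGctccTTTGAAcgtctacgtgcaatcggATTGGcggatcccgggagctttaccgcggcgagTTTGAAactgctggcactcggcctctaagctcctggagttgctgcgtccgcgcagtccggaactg
Cdc25b: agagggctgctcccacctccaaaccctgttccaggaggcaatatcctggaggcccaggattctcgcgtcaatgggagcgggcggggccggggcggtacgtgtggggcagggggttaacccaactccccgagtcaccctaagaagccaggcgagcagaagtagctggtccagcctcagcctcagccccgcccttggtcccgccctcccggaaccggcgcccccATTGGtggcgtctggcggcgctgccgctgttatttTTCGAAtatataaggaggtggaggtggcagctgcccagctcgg
The windows lie, on GRCm38.p6, at chr13:100786437-100786736 (minus strand) for Ccnb1, chr9:70421505-70421804 (minus) for Ccnb2, chr17:24251360-24251659 (minus) for Ccnf, chr10:69352863-69353162 (minus) for Cdk1 and chr2:131186698-131186997 (plus) for Cdc25b.

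Ccnb2, Ccnf and Cdk1 each held TTTGAA in 2 places, whereas Ccnb1 held TTTAAA once and Cdc25b held TTCGAA once. In every window the CHR match nearest the start lay within 42 bases of it: its first base was at position -42 in Ccnb1, at 5 in Ccnb2, at -14 in Ccnf, at -15 in Cdk1 and at 8 in Cdc25b, counting the first transcribed base as 1 and the base before it as -1. Over all 32851 windows of 300 bases, 17.9% held TTTGAA, 13.2% TTTAAA, 1.56% TTCGAA and 28.8% at least 1 of these 3 forms. A first base within 42 bases of the start, a limit set after these positions had been read by the farthest of the 5 genes, was found for at least 1 form in 7.70% of all windows. CCAAT boxes were found in all 5 windows, with 2 in Ccnb1, 3 in Ccnb2, 2 in Ccnf, 3 in Cdk1 and 1 in Cdc25b, against 37.4% of all windows with at least 1 and 11.7% with at least 2. In Ccnb1, Ccnb2 and Cdk1, neighbouring CCAAT boxes on 1 strand started 32 or 33 bases apart, an arrangement present in 0.487% of all windows that was looked for only after these sequences had been read. Cdk1 also held an E2F site, TTTCGCGC, with its first base at position -131 (0.323% of windows), and none of the 5 held TTTGGCGC (0.514%). A match of letters is a description and was not tested as a binding site.

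**Figure D1:**
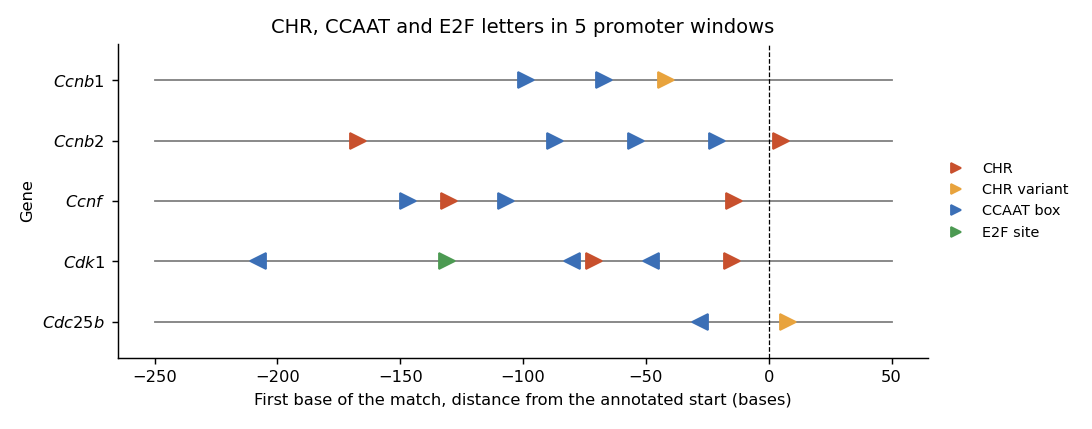
Position of the CHR letters and their variants, CCAAT boxes and E2F letters in the promoter windows of Ccnb1, Ccnb2, Ccnf, Cdk1 and Cdc25b. The x axis gives the distance in bases of the first base of each match from the annotated start, and triangles point right for matches on the strand of the gene and left for the opposite strand. Ccnb1, Ccnb2 and Cdk1 share pairs of CCAAT boxes 32 or 33 bases apart, and each of the 5 genes has CHR letters starting within 42 bases of the start, both distances being chosen after the sequences had been read.

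The libraries held 31419443 to 36346220 reads counted on genes at 0 h and 31684152 to 33093006 at 48 h. Levels are given as CPM (counts per 1000000, with library totals normalized by TMM), and a floor of 3 counts corresponds to 0.0840 to 0.102 CPM. Such floors and the counting intervals below cover counting error only and not the spread between mice, and the reads carry no molecular identifiers. Hepatocyte markers were abundant at both time points, with 10 genes including Alb summing to 108100 to 128000 CPM at 0 h and 72350 to 86590 CPM at 48 h (Fgb higher, Alb, Ttr, Apoa1 and Cyp2e1 lower, and the other 5 not called). Markers of other liver cells were low. The 10 Kupffer cell markers summed to 82.0 to 122.9 CPM at 0 h and 111.6 to 137.9 CPM at 48 h, and 2 of the 10 rose (Cd5l and Cd68), near the 21.4% of all genes tested that did, while none was lower in edgeR, DESeq2 or limma-voom or at an unadjusted p under 0.05 (0 genes each). The 10 endothelial markers summed to 256 to 392 CPM at 0 h and 185 to 206 CPM at 48 h, and all 10 fell, as did 19.3% of all genes tested. The 8 stellate cell markers summed to 74.1 to 119.9 CPM and 65.8 to 79.0 CPM, with Col1a1 higher and Reln lower. The 6 cholangiocyte markers summed to 9.16 to 20.7 and 16.4 to 26.0 CPM, mostly Sox9, with Spp1 higher and with Krt7, Epcam and Cftr at 3 counts or fewer in every library. The 8 lymphocyte markers summed to 2.79 to 3.84 and 2.65 to 3.89 CPM, with Cd3g, Trac, Cd79b, Ms4a1 and Nkg7 at 3 counts or fewer everywhere. Of the lymphocyte markers too low to be tested, Cd79a had 2, 0 and 1 counts at 0 h and 3, 8 and 7 at 48 h, while Cd3e had 2, 4 and 2 counts at 0 h and 0, 1 and 0 at 48 h. The 8 neutrophil markers summed to 1.10 to 1.23 and 0.951 to 1.51 CPM, with Mpo and Retnlg at 0 in all 6 libraries, S100a8, S100a9 and Ngp at 3 counts or fewer, and Csf3r lower at 48 h. Camp (2, 3 and 0 counts at 0 h, 6, 19 and 26 at 48 h) and Elane (5, 1 and 3 counts at 0 h, 13, 16 and 8 at 48 h) were more frequent in every 48 h library but did not pass the filter and were not tested. How much the non-hepatocytes in the preparations contributed to the counts of the cyclins, Cdk1 and its regulators was not tested, and in bulk samples more expressing cells and more RNA per cell cannot be told apart.

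All 9 genes rose after PHx. Each passed an adjusted p of 0.05 (edgeR, quasi-likelihood F test, adjusted by Benjamini-Hochberg) among 17037 genes tested, of which 21.4% were called higher and 19.3% lower. In all 9 the 3 libraries at 48 h lay above the 3 libraries at 0 h, which was also the case for 27.8% of the genes tested. The log2 fold changes ran from 0.83 for Ccnf to 6.96 for Cdc25c with a median of 5.55, against a median of -0.0033 over all genes tested. When the log2 fold change also had to reach 1, 8 of the 9 were called higher (all but Ccnf), against 9.69% of the genes tested. With library size in place of TMM, 5309 genes were higher and 2108 lower in place of 3638 and 3288, and all 9 genes were still called higher. Cdc25c passed the filter on low counts (at least 10 counts in at least 3 libraries) through its 48 h libraries alone, so its call was in part fixed by the filter, and the other 8 had 10 counts or more in 2 or 3 of the 0 h libraries.

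**Figure D2:**
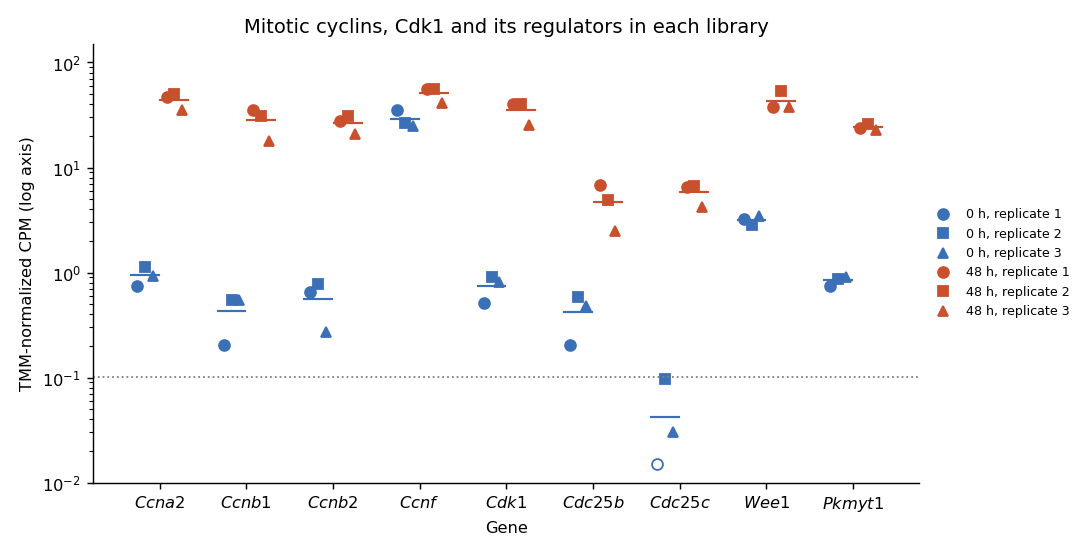
TMM-normalized CPM (log axis) of the 9 genes in each of the 6 libraries, with 0 h in blue and 48 h in red, the replicate given by the marker shape and the mean of 3 libraries by a short line. The open circle is a library with 0 counts, drawn at the bottom, and the dotted line is the highest level that 3 counts reach (0.102 CPM). The 2 time points are separate for every gene and lie closest together for Ccnf. The 48 h triangle (replicate 3) is the lowest 48 h point throughout, by little for Wee1 and Pkmyt1.

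Among the cyclins, Ccna2, Ccnb1 and Ccnb2 had at most 35 reads in any 0 h library and at least 625 at 48 h. Ccna2 (ENSMUSG00000027715.9; chromosome 3, 36564865 to 36572150, minus strand, GRCm38), whose product partners CDKs from S phase to early mitosis, stood at 0.75, 1.13 and 0.93 CPM in replicates 1, 2 and 3 at 0 h and at 47.4, 49.7 and 35.5 CPM at 48 h. The lowest library at 48 h was thus far above the highest at 0 h, and the log2 fold change was 5.55 (SE, the standard error, 0.199, edgeR adjusted p = 3.44e-08). The antisense neighbour Exosc9 shares 12.5% of the exon bases of Ccna2, and without a stated strand setting the reads of the shared part cannot be told apart. Exosc9 itself stood at 3.61 to 4.88 CPM at 0 h and at 5.91 to 6.23 CPM at 48 h.

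Ccnb1 (ENSMUSG00000041431.16; chromosome 13, 100778650 to 100786570, minus strand) encodes cyclin B1, the main partner of Cdk1 at mitotic entry. It was counted at 0.20, 0.55 and 0.54 CPM at 0 h, from 6, 17 and 18 reads, and at 35.0, 31.3 and 17.9 CPM at 48 h. Replicate 3 at 48 h held 53.9% of the mean of the other 2 libraries, yet the groups did not overlap. The log2 fold change was 5.99 (SE 0.349, edgeR adjusted p = 6.23e-07). Its annotated pseudogene Ccnb1-ps had 0 counts in each 0 h library and 3 to 5 at 48 h.

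Ccnb2 (ENSMUSG00000032218.7; chromosome 9, 70407692 to 70421547, minus strand), the gene of the second B-type cyclin, stood at 0.65, 0.77 and 0.27 CPM at 0 h and at 27.8, 30.9 and 20.9 CPM at 48 h. Its log2 fold change was 5.56 (SE 0.284, edgeR adjusted p = 2.58e-07). Its 0 h level is uncertain because of an annotated pseudogene. Ccnb2-ps was counted 18, 18 and 40 times at 0 h, where Ccnb2 had 19, 24 and 9 counts, and 21, 17 and 13 times at 48 h, where Ccnb2 had 936, 1105 and 733. The library with the fewest Ccnb2 reads at 0 h, replicate 3, was the one with the most on the pseudogene. Summing both entries, a step added after seeing the data, gave 1.26, 1.36 and 1.48 CPM at 0 h and 28.4, 31.4 and 21.3 CPM at 48 h, and lowered the log2 ratio of the means from 5.56 to 4.31. Whether the pseudogene reads came from Ccnb2 transcripts was not tested.

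Ccnf (ENSMUSG00000072082.7; chromosome 17, 24222198 to 24251484, minus strand) was already well expressed before surgery. It was counted at 35.0, 26.3 and 24.9 CPM in undamaged liver and at 55.8, 55.6 and 41.2 CPM at 48 h. The gap between the groups was small, since the lowest library at 48 h exceeded the highest at 0 h by a small margin, and the highest 0 h library was replicate 1. The log2 fold change was 0.83 (SE 0.159, edgeR adjusted p = 0.00219), and the ratio of 48 h to 0 h, from summed counts divided by the TMM-normalized library totals, was 1.78 (95% exact counting interval 1.70 to 1.87). For Ccna2, Ccnb1 and Ccnb2 the corresponding ratios were 46.9 (38.0 to 58.7), 63.8 (46.9 to 89.1) and 47.8 (36.4 to 64.2), so the interval of Ccnf lay below all of them, though the difference between genes was not tested. The 2 miRNA genes annotated within Ccnf, Mir5134 and Mir6965, share at most 8 exon bases with it and had at most 2 counts in any library.

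Cdk1 (ENSMUSG00000019942.13; chromosome 10, 69335146 to 69352938, minus strand) was the CDK gene that changed most. It stood at 0.51, 0.90 and 0.81 CPM at 0 h and at 40.4, 40.6 and 25.7 CPM at 48 h, with a log2 fold change of 5.57 (SE 0.255, edgeR adjusted p = 1.19e-07). Cdk2, its close relative, which works with cyclins E and A in S phase, was counted at 10.9 ± 1.32 (SD, n = 3) CPM before surgery and at 25.3 ± 0.349 (SD, n = 3) CPM after it, and its log2 fold change was 1.21 (SE 0.121, edgeR adjusted p = 3.15e-05). Of 16 further CDK genes tested, Cdk4 alone was called higher (log2 fold change 0.75, edgeR adjusted p = 0.000724), against 21.4% of all genes tested, and the median log2 fold change of the 16 was 0.07. None was called lower in edgeR, DESeq2 or limma-voom (0 genes each), and 1 was lower at an unadjusted p under 0.05.

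The activating phosphatases rose too. Cdc25b (ENSMUSG00000027330.16; chromosome 2, 131186949 to 131198497, plus strand), a phosphatase that starts Cdk1 activation in G2, stood at 0.20, 0.58 and 0.48 CPM at 0 h and at 6.75, 4.93 and 2.49 CPM at 48 h. The 48 h libraries spread more than for any other of the 9 genes, with a coefficient of variation of 45.3% and replicate 3 at 42.6% of the mean of the other 2. The log2 fold change was 3.46 (SE 0.435, edgeR adjusted p = 0.000149). The antisense neighbour Spef1 shares 2.47% of its exon bases and stayed at or below 0.715 CPM in each library.

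Cdc25c (ENSMUSG00000044201.10; chromosome 18), the phosphatase that acts with cyclin B and Cdk1 in the feedback of mitotic entry, had 0, 3 and 1 counts in the 0 h libraries and 219, 237 and 147 counts at 48 h. These correspond to at most 0.0968 CPM at 0 h and to 6.51, 6.63 and 4.20 CPM at 48 h. Because 4 reads in all stand behind the 0 h level, the size of the change is poorly fixed. The ratio of summed counts, scaled by the TMM-normalized totals, was 135, with a 95% exact counting interval of 52.5 to 497.5, and the fitted log2 fold change of 6.96 (SE 0.473, edgeR adjusted p = 1.87e-06) was 8.19 without 0 h replicate 2, which held 3 of the 4 reads, and 6.44 without 0 h replicate 1. Antisense Gm3550 shares 12.7% of the Cdc25c exon bases and had at most 6 counts in a library. Cdc25a, the third member of the family, which also acts in S phase, went from 3.37 ± 0.966 (SD, n = 3) CPM to 18.9 ± 2.98 (SD, n = 3) CPM (log2 fold change 2.49, SE 0.206, edgeR adjusted p = 8.38e-06).

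The inhibitory kinases rose as well. Wee1 (ENSMUSG00000031016.9; chromosome 7, 110122046 to 110143286, plus strand) stood at 3.20, 2.84 and 3.44 CPM at 0 h and at 37.6, 53.3 and 37.4 CPM at 48 h. Its log2 fold change was 3.76 (SE 0.175, edgeR adjusted p = 1.30e-07). The antisense gene 1600010M07Rik spans Wee1 without sharing exon bases and had at most 5 counts in a library. Pkmyt1 (ENSMUSG00000023908.8; chromosome 17, 23726336 to 23736735, plus strand) rose from 0.75, 0.87 and 0.90 CPM to 23.6, 26.2 and 22.8 CPM. It had the tightest 48 h values of the 9 genes, with a coefficient of variation of 7.25%, and a log2 fold change of 4.84 (SE 0.157, edgeR adjusted p = 2.34e-08). The ratio of summed counts, scaled in the same way, was 13.6 for Wee1 (95% exact counting interval 12.1 to 15.3) and 28.7 for Pkmyt1 (22.9 to 36.4), and these intervals did not overlap. The intervals take reads as the unit and leave out the spread between mice, and the difference between the genes was not tested. Antisense Paqr4 shares 8.76% of the Pkmyt1 exon bases and rose from 0.874 to 1.32 CPM to 3.66 to 4.58 CPM (log2 fold change 1.92, edgeR adjusted p = 0.000105). Wee2, the germline paralog of Wee1, was listed at a mean of 0.0227 CPM at 0 h and at 0 at 48 h.

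Within the 48 h group the 9 genes ranked the libraries alike at the low end. Replicate 3 was the lowest of the 3 libraries for all 9 genes, replicate 2 was the highest for 6 of them and replicate 1 for 3. For Wee1 and Pkmyt1 replicate 3 was only just below replicate 1, and this depended on TMM (37.4 against 37.6 CPM and 22.8 against 23.6). Replicate 3 held more reads of both genes (1307 against 1266 and 798 against 795) from a smaller library total. Over all genes tested, replicate 3 was the lowest 48 h library in 34.9%. The low rank was not particular to the 9 genes. Of related genes, Plk1, Tpx2, Cdc20 and Ube2c were also lowest in replicate 3, whereas Ccne1, Ccne2 and Cdkn1a were not. Relative to the mean of replicates 1 and 2, replicate 3 held 42.6% for Cdc25b, 53.9% for Ccnb1, 63.4% for Cdk1 and 64.0% for Cdc25c, but 82.2% for Wee1 and 91.6% for Pkmyt1. The genes are not independent of each other within a library, so this is a statement about 1 mouse, and its cause was not tested. In every gene the low value of replicate 3 remained above all 3 libraries at 0 h.

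Compared per length of annotated exon, the order of the 9 genes changed between the time points. At 0 h, Ccnf led at 3.68 ± 0.701 (SD, n = 3) CPM per kb, followed by Wee1 at 0.924 ± 0.0881 (SD, n = 3), and their ranges did not overlap. Ccnb2, Pkmyt1 and Ccna2 followed at 0.369, 0.231 and 0.230 CPM per kb, with ranges that overlapped, as did those of Cdk1, Cdc25b and Ccnb1 at 0.151, 0.113 and 0.102 CPM per kb. Cdc25c was last at 0.0086 CPM per kb. At 48 h, Ccnb2 stood first at 17.4 ± 3.33 (SD, n = 3) CPM per kb and Wee1 second at 12.5 ± 2.67 (SD, n = 3), with overlapping ranges. Ccna2 came next at 10.8, overlapping Wee1 and above every library of the genes after it, and then Cdk1, Ccnb1, Pkmyt1 and Ccnf at 7.20, 6.65, 6.64 and 6.53 CPM per kb, which did not differ beyond their spread. Cdc25b and Cdc25c were lowest at 1.27 and 1.18 CPM per kb, and their ranges lay below those of the other 7 genes. Lengths were the union of all annotated exons, and Ccnb2 and Wee1 have 1 annotated transcript where Ccnf has 10. With the longest coding transcript in place of the union, an alternative added after seeing the data, Ccnf had 6.95 CPM per kb at 0 h and 12.3 at 48 h, which then placed it above Cdk1 without overlap and above Pkmyt1 and Ccnb1 with overlapping ranges. Under the same alternative at 48 h, Ccna2 at 14.9 CPM per kb stood above Wee1 at 12.5 and Cdc25c at 2.97 above Cdc25b at 1.53, both with overlapping ranges, while Ccnb2 stayed first. At 0 h Pkmyt1 at 0.412 CPM per kb stood above Ccnb2 at 0.369, and Ccnb1 moved above Cdk1 and Cdc25b, in each case with overlapping ranges. With the counts of Ccnb2-ps added, Ccnb2 had 0.891 CPM per kb at 0 h (0.823 to 0.965), overlapping Wee1 and above Pkmyt1.

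**Figure D3:**
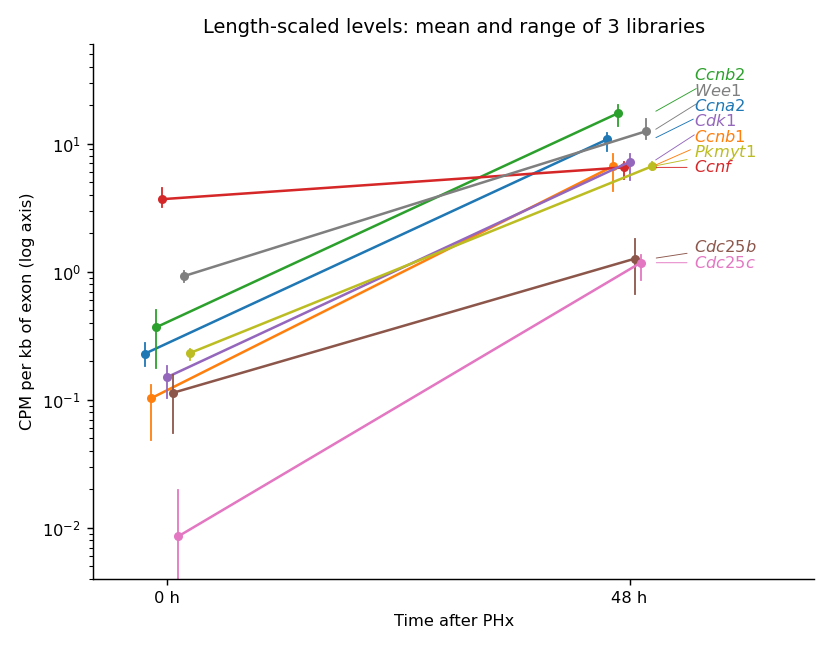
Level per length of the 9 genes at 0 h and 48 h, in CPM per kb of exon on a log axis. Points are means of 3 libraries and vertical lines the range, which for Cdc25c at 0 h runs to 0 and is drawn to the axis. Ccnf starts highest at 3.68 and rises least, Ccnb2 ends highest at 17.4, and Cdc25b and Cdc25c end lowest at 1.27 and 1.18.

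Ratios within a library compare the RNA levels of activators, inhibitors and Cdk1, not the proteins or their activity. They carry no depth or scaling difference between libraries, but at 0 h some rest on few reads, and they were not tested. The summed level per kb of Wee1 and Pkmyt1 relative to Cdk1 was 11.0, 5.84 and 7.60 at 0 h and 2.14, 2.77 and 3.31 at 48 h. All 3 libraries at 48 h were below all 3 at 0 h, where 15 to 28 reads stand behind Cdk1. The ratio of Wee1 to Pkmyt1 was 4.55, 3.47 and 4.05 at 0 h and 1.70, 2.17 and 1.75 at 48 h, again without overlap. Its size, but not the direction of its change, depends on the lengths used. With the longest coding transcript, Wee1 and Pkmyt1 had means of 0.924 and 0.412 CPM per kb at 0 h and 12.5 and 11.9 at 48 h.

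The ratios of cyclins to Cdk1, of Cdc25b and Cdc25c to the inhibitory kinases and between the B cyclins overlapped between the time points when taken from the gene entries alone. The sum of Ccna2, Ccnb1 and Ccnb2 relative to Cdk1 was 6.32, 4.98 and 3.24 at 0 h and 4.66, 4.83 and 5.12 at 48 h, means of 4.85 ± 1.54 and 4.87 ± 0.232 (SD, n = 3 each). This overlap depended on the pseudogenes: with the counts of Ccnb1-ps and Ccnb2-ps added to their genes, after seeing the data, the ratio was 10.2, 7.06 and 8.02 at 0 h and 4.71, 4.88 and 5.17 at 48 h, and all 3 libraries at 48 h were below all 3 at 0 h. The sum of Cdc25b and Cdc25c relative to Wee1 and Pkmyt1 was 0.048, 0.164 and 0.108 at 0 h and 0.179, 0.117 and 0.0885 at 48 h, so the inhibitory kinases were above these phosphatases in CPM per kb in every library. Cdc25a was not part of this sum, though its mean of 0.420 CPM per kb at 0 h and 2.36 at 48 h was above those of Cdc25b and Cdc25c. Ccnb1 relative to Ccnb2 was 0.115, 0.257 and 0.726 at 0 h, where 6 to 24 reads stand behind each gene, and 0.457, 0.367 and 0.310 at 48 h. With the pseudogene counts added it was 0.0589, 0.147 and 0.133 at 0 h and 0.448, 0.362 and 0.307 at 48 h, without overlap. Both readings are given because the source of the pseudogene reads was not tested.

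**Figure D4:**
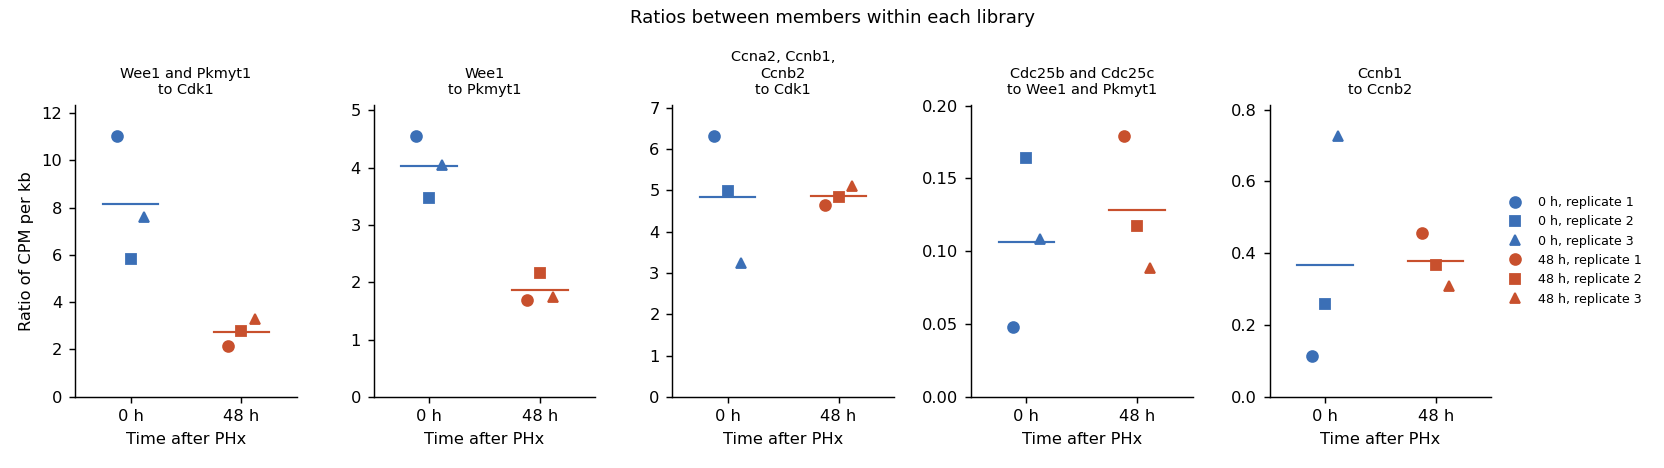
Ratios of level per kb between the genes within each library (y axis, linear from 0, a separate scale for each panel) at 0 h (blue) and 48 h (red), with the replicate given by the marker shape and the mean by a short line. The ratios of Wee1 and Pkmyt1 to Cdk1 and of Wee1 to Pkmyt1 are lower in all 3 libraries at 48 h, and in the other 3 panels, drawn without pseudogene counts, the time points overlap.

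The surrounding pathway was read from 39 genes, of which 38 were tested. The test called 28 of them higher, with a median log2 fold change of 0.97, and 0 lower in edgeR, DESeq2 or limma-voom or at an unadjusted p under 0.05, against 21.4% higher and 19.3% lower over all genes tested, the shares to read beside each list that follows. Among the partners and activators of Cdk1, 6 of 9 rose, with the largest changes in Tpx2 (log2 fold change 6.21), which activates the kinase Aurora A at the spindle, and Plk1 (6.16), the Polo kinase that activates Cdc25 and marks Wee1 for destruction. The CDK-activating kinase behaved otherwise, since none of its 3 genes passed the test (Cdk7 -0.09, Ccnh -0.12 and Mnat1 -0.11). In the arm that restrains PP2A-B55, the phosphatase opposing Cdk1, Mastl (Greatwall) rose by 1.77 and its substrate Arpp19 by 0.48, and Ensa did not pass the test. Of the genes for B55 subunits of the phosphatase itself, Ppp2r2a rose by 0.33 and Ppp2r2d did not pass the test.

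Of 7 genes of cyclin destruction, 6 rose, led by Ube2c (log2 fold change 5.92), the E2 enzyme of the anaphase-promoting complex, and Cdc20 (5.75), its mitotic co-activator. Fzr1, the co-activator of late mitosis and G1, stood at 33.1 ± 4.33 (SD, n = 3) CPM at 0 h and 32.8 ± 3.57 (SD, n = 3) CPM at 48 h and was not called (log2 fold change -0.01, edgeR adjusted p = 0.939). Among checkpoint genes and CDK inhibitors, 6 of the 7 tested rose, led by Chek1 (4.13), which phosphorylates Cdc25 proteins, and Cdkn1a (3.43), the gene of the CDK inhibitor p21, and Sfn was not called. Cdkn1c did not pass the filter on low counts.

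Among the regulators of G2/M transcription, 7 of 10 rose, with Foxm1 (log2 fold change 6.26) and Lin9 (2.44), a subunit of the MuvB core, at the top. Mybl2 and Nfya are named here after their values were seen. Mybl2 reached 0.915 ± 0.252 (SD, n = 3) CPM at 48 h from 0.466 ± 0.117 (SD, n = 3) CPM (log2 fold change 0.96, edgeR adjusted p = 0.044). Nfya, a subunit of the factor that binds CCAAT boxes, rose by 0.67, and Nfyb, Nfyc and Rbbp4 did not pass the test.

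Outside the mitotic cyclins, 8 of the 19 other cyclin genes tested rose and 2 fell, with a median log2 fold change of 0.15, where 21.4% of all genes were higher and 19.3% lower. The largest increases were in Ccne1 (log2 fold change 5.36), the cyclin of the G1/S transition, and Ccnd1 (3.41), the cyclin of growth factor response. The decreases were in Ccnl1 (-0.65) and Ccnl2 (-0.62), cyclins linked to transcription and splicing. Of the closest relatives of the mitotic cyclins, the germline cyclin Ccna1 was at 0 in the 0 h libraries and at a mean of 0.105 CPM at 48 h, at the level of the floor, and Ccnb3 was at 0 in all 6 libraries. At 48 h nearly all reads on these 5 A and B cyclin genes were thus those of Ccna2, Ccnb1 and Ccnb2, pseudogene entries not counted.

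**Figure D5:**
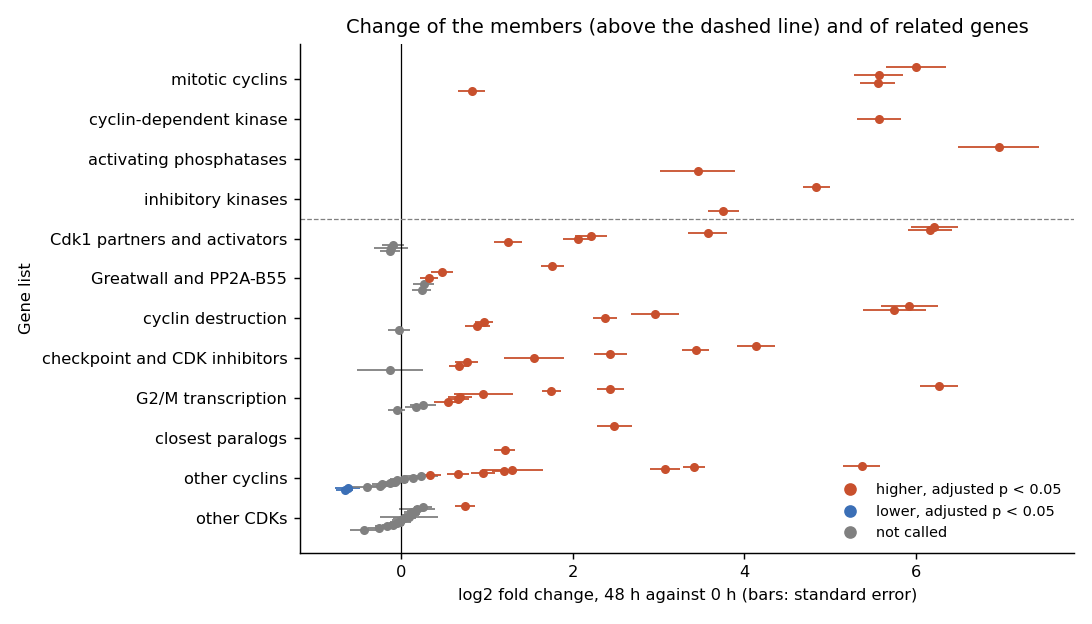
Log2 fold change of 48 h against 0 h (x axis, bars are the standard error) for the 9 genes, above the dashed line, and for the related genes tested, grouped by role (y axis). Red marks genes called higher, blue genes called lower and grey genes not called at an adjusted p of 0.05 in edgeR. Of the 9 genes, 8 lie at 3.46 or more and Ccnf at 0.83, whereas most other cyclins and CDKs cluster around 0.

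The genes whose profile was most like the mean log2 CPM of the 9 genes over the 6 libraries, among genes of at least 10 CPM on average, were Plk1, Prc1, Gtf2a2, Ect2 and Kif20a. Their Pearson's r was 0.9999, 0.9998, 0.9997, 0.9997 and 0.9996 over 6 libraries that fall into 2 groups, so these values are a description and rest mainly on the difference between the time points. Prc1 stood at 0.75, 1.26 and 0.90 CPM at 0 h and at 41.3, 41.5 and 28.0 CPM at 48 h, also lowest in replicate 3 within the 48 h group. Gtf2a2, a subunit of a general transcription factor, shared the shape at a much smaller scale, from 15.2, 16.7 and 16.0 CPM to 31.9, 32.4 and 29.1 CPM (log2 fold change 0.96, edgeR adjusted p = 5.60e-05).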

How the data were processed

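Hepatocyte RNA was sequenced in bulk in 6 libraries, and titles gave each library's time point and replicate. The authors deposited raw counts of reads per gene, without normalization, in the layout of htseq-count, and the submitters' processing notes list Trim Galore 0.6.4, STAR 2.6, HTSeq 0.12.4, DESeq2 and the build mm10. Strand setting and counting mode are not given in the sources used here. Reads aligned to several places are listed at 0, so reads shared by near-identical genes may be missing, and 4.27 to 5.29% of the reads were ambiguous between genes and 24.3 to 32.7% fell on no gene. All 55450 identifiers matched GENCODE M21, from which names, coordinates and exon lengths were taken.

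Counts were tested in R 4.3.3 with edgeR 4.0.16 (TMM, glmQLFit, glmQLFTest, with time as single term) on 17037 genes that reached 10 counts in 3 or more libraries, and p-values were adjusted by Benjamini-Hochberg. An adjusted p under 0.05 was a call. The standard error was the log2 fold change divided by the square root of F. Ratios of summed counts were divided by the ratio of TMM-normalized library totals, with exact binomial counting intervals (95%). Alternatives were DESeq2 1.42.0, voom in limma 3.58.1, other normalizations and filters, a replicate block, a fold threshold and leaving out each library, and the edgeR step was tested on simulated data. The 9 genes, the lists and the tests were chosen with earlier results of these data known. Named were the 9 genes, their closest paralogs, the 2 largest called increases and decreases of each list, and the 5 nearest profiles, and genes named beyond that complete a count, share a locus, are cell type markers or, for Mybl2 and Nfya, were chosen after their values were seen. Same-numbered libraries come from different mice, with deviations from the group means correlating at 0.0335, -0.0674 and -0.138, so they were not treated as pairs.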

Additional observations from a re-analysis of the deposited data

How the results depend on the processing

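All 9 genes stayed higher with library size, RLE or upper quartile normalization, with either other filter, in DESeq2 and in limma-voom, and their largest adjusted p over these and the fits without 1 library was 0.0128, for Ccnf. Leaving out 1 library gave 8 to 9 genes higher and 0 lower, because Cdc25c, with too few counts at 0 h, failed the filter whenever a 48 h library was removed. The log2 fold change of Ccnf ran from 0.72 to 1.02 over all alternatives. Without 1 library, 2649 to 3395 genes were higher and 2540 to 3166 lower, 25 to 27 pathway genes were higher and 0 lower, and 9 to 11 family genes were higher and 2 to 3 lower. With library size only, the median log2 fold change moved from -0.0033 to 0.20, the genes called lower fell from 3288 to 2108, the share of calls that were higher went from 52.5% to 71.6%, and the family genes called higher went from 11 to 17. With a log2 fold change of at least 1 required, 1651 genes were higher and 1353 lower, since the threshold is stricter. With all genes of at least 1 count, 4 family genes were lower in place of 2, and the cause was not tested. With the replicate block, 9 of the 9 genes were higher, as were 3237 of all genes, 27 pathway and 10 family genes, and 2884 genes were lower. Depth limits the 0 h levels, which rest on 35 reads or fewer per library for 7 of the 9 genes.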
